A study of Saccharomyces cerevisiae with 2 samples.

Results

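The genes described here are the oleate regulators of Saccharomyces cerevisiae and a set of the peroxisomal beta-oxidation genes they control, read for their transcript ratios after enzymatic damage to the cell wall. The 9 members are the regulators OAF1, PIP2, OAF3 and ADR1 and the targets POX1, FOX2, POT1, FAA2 and CTA1, taken by open reading frame (ORF) name from 6207 ORFs on the arrays. The set was chosen by the measured log2 ratios of these same arrays, on which OAF1 is among the highest, so the members' own values are a description and carry no test.

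The strain was a sho1 mutant in the BY4741 background, a haploid laboratory strain, and Sho1 is a membrane protein that feeds one branch of the osmotic stress (HOG) pathway. Treated cells received Zymolyase at 0.8 units per ml, a glucan-digesting enzyme mix that attacks the wall, and were collected at 3 hours. Their reference was the other portion of the culture, also sho1 mutant and grown at 24 °C in the glucose medium YEPD, without the enzyme. Treated and untreated RNA were hybridised together on 2 two-colour arrays with the dyes swapped: treated RNA carried Cy3 on array 1 and Cy5 on array 2. For array 2, the note on untreated RNA gives hog1 in place of sho1 as the mutant. The labels speak of 2 cultures with dye-swapped repeats, and whether each record is 1 array or a mean of several is not stated; each record is called an array here. SHO1 itself had no value on either array, so it does not check the labels. HOG1 had log2 ratios of -0.20 on array 1 and 0.04 on array 2, so the treated and untreated channels of array 2 differed little for the gene that the note names. Ratios within 1 strain give no level, so the a-cell identity of the background was not checked from its markers.

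In yeast, fatty acids are degraded by beta-oxidation inside peroxisomes. Oleate in the medium activates the zinc cluster factor Oaf1, which pairs with its paralogue Pip2 on oleate response elements in the promoters of beta-oxidation genes, while the zinc finger factor Adr1 adds activation once glucose is exhausted. In glucose medium this set of genes is repressed. The question asked of the ratios is whether the targets moved together with OAF1.

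In the columns as deposited the targets did not share the ratio of OAF1, and with array 1 turned OAF1 itself had no single direction. As deposited, OAF1 stood at 2.84-fold in the mean. The means of the 4 targets with values lay between 0.905-fold and 1.06-fold, but each averages values of opposite signs. On array 1 the targets ranged from 0.701-fold (FOX2) to 1.85-fold (POX1). On array 2 they ranged from 0.607-fold (POX1) to 1.17-fold (FOX2). Which channel stands on top of the ratios is not stated. A positive value is read here as higher in treated cells, a convention that the labels do not settle. Pearson's r between the columns across 5311 ORFs was -0.012 and Spearman's rho -0.26 (genes are not independent replicates), so the columns might instead be fixed-dye ratios. Values with the sign of array 1 turned are therefore given beside the others, and turning both columns would turn each direction given here.

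**Figure D1:**
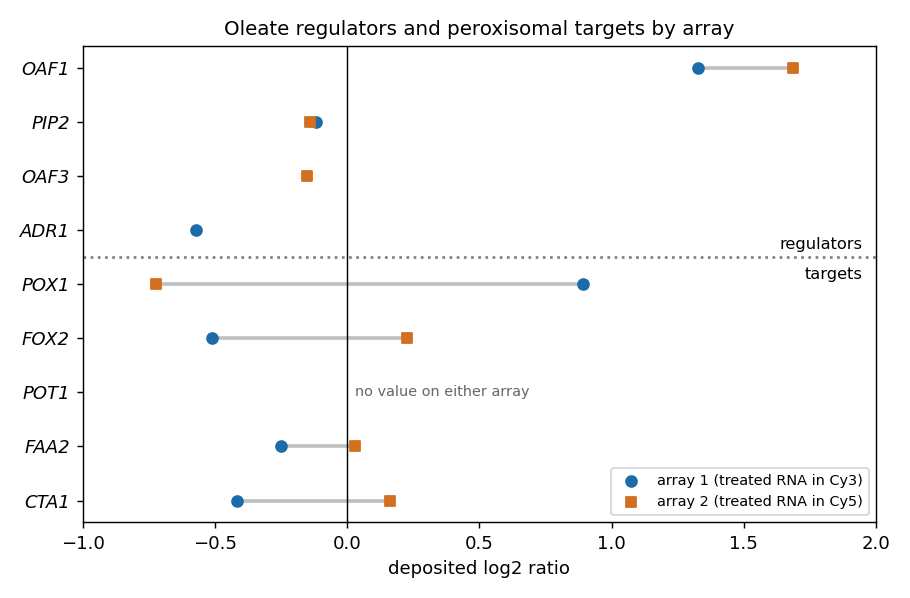
Deposited log2 ratios (horizontal axis) of the 9 members, with array 1 as circles, array 2 as squares and a grey line joining the arrays of 1 gene. OAF1 has both points above 1, PIP2 has both just below 0, and each measured target has its points on opposite sides of 0, POX1 in the reverse order to FOX2, FAA2 and CTA1.

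Of the 9 members, 6 had a value on both arrays, 2 on 1 array and 1 on neither. In the limma fit over all 5311 ORFs with both values (Benjamini-Hochberg adjustment, threshold 0.05) 41 were called as higher, which is 0.772%, and 0 as lower, with 191 ORFs (3.6%) at an unadjusted p under 0.05. Among the members 1 of 6 was called, OAF1, the gene for which the set was chosen. By size alone, 17 ORFs (0.32%) had a mean of at least 2-fold and both values above 0, and OAF1 was the 1 member among them. In the turned reading 0 of 5311 ORFs were called, with 499 (9.4%) at an unadjusted p under 0.05. The labels name 2 cultures but do not say which culture gave which record, so the p-values cover the spread between these records, possibly technical spread alone. With 1 residual and 23.5 prior degrees of freedom, that spread is mostly a variance pooled over all ORFs. Each gene's own spread between the records weighs little in its p-value. The precision is limited by there being 2 arrays, and the depth behind each ratio is unknown because spot intensities were not used here.

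OAF1 (YAL051W), the oleate-binding activator, had a log2 ratio of 1.33 on array 1, which is 2.51-fold. On array 2 it had 1.68, which is 3.22-fold. It ranked 5th from the top on each array and 5th in the mean, at 1.51 ± 0.25 (SD, n = 2 arrays). Both values were far above 0, and their difference of 0.36 between arrays was larger than that of 80.8% of ORFs. The mean was 0.18 with an SD of 2.13 when array 1 was turned, since its 2 values then opposed each other.

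PIP2 (YOR363C), the partner and paralogue of Oaf1, is itself an oleate-induced gene in cells grown on oleate. Its log2 ratios were -0.12 on array 1 and -0.14 on array 2, a mean of -0.13 ± 0.02 (SD, n = 2). The arrays were close to each other for this gene, since only 6.23% of ORFs had a smaller difference between arrays. The mean of PIP2 minus that of OAF1 was -1.63 on the log2 scale, and 13.7% of ORFs had a lower mean than PIP2. In the turned reading the mean of PIP2 was -0.01.

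The other regulators were measured on 1 array each, so neither has an error. OAF3 (YKR064W), a zinc cluster protein that acts as a negative regulator in oleate, had no value on array 1 and -0.15 on array 2, where 20.5% of ORFs were lower. ADR1 (YDR216W), the activator of glucose-repressed and peroxisomal genes, had -0.57 on array 1 and no value on array 2. That value was the 20th lowest of 5552 on array 1, a ratio of 0.674. No regulator other than OAF1 had a value above 0 on the array or arrays that measured it, in the columns as deposited. Turning array 1 puts the single value of ADR1 above 0.

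POX1 (YGL205W) encodes acyl-CoA oxidase, the enzyme of the opening step of beta-oxidation, and its values opposed each other on the arrays. Its log2 ratio was 0.89 on array 1, the 21st highest there, and -0.72 on array 2, the 6th lowest there. The mean of 0.08 had an SD of 1.14 (n = 2), so it describes neither array. The difference between arrays, -1.61 for array 2 minus array 1, was the 2nd largest in size of all 5311 ORFs. When array 1 was turned the values had one sign, and the mean of -0.81 ± 0.12 (0.572-fold) was the 2nd lowest of all.

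FOX2 (YKR009C), the bifunctional enzyme of the hydratase and dehydrogenase steps, showed the reverse order of signs. It had -0.51 on array 1 and 0.23 on array 2, a mean of -0.14 ± 0.52 (SD, n = 2). CTA1 (YDR256C), the peroxisomal catalase that removes the hydrogen peroxide made by Pox1, had -0.42 on array 1 and 0.16 on array 2, a mean of -0.13 ± 0.41. Both genes were thus below 0 on array 1 and above 0 on array 2, and their spread exceeded their mean. In the turned reading FOX2 had a mean of 0.37 ± 0.20, the 25th highest. CTA1 then had 0.29 ± 0.18, the 86th highest. In that reading FOX2 and CTA1 lie on the other side of 0 from POX1.

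FAA2 (YER015W), the peroxisomal acyl-CoA synthetase for medium-chain fatty acids, had -0.25 on array 1 and 0.03 on array 2. Its mean was -0.11 ± 0.20 (SD, n = 2), and 0.14 with array 1 turned. It followed the order of FOX2 and CTA1 with smaller values. POT1 (YIL160C), the 3-ketoacyl-CoA thiolase that ends each cycle, had no value on either array and is not described further.

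Set beside OAF1, the 4 measured targets had a median log2 ratio of -0.33 on array 1, against 1.33 for OAF1. On array 2 their median was 0.10, against 1.68 for OAF1. The median of their means was -0.12, a difference from OAF1 of -1.62, while the median of all ORFs was -0.03. Among the means of all ORFs, FOX2 lay at percentile 10.8, CTA1 at 13.8, FAA2 at 18.7 and POX1 at 86.3, and OAF1 at 99.9. Their median was 0.21 with array 1 turned, and OAF1 had 0.18. Those near-equal values cover a POX1 at -0.81, a FOX2 at 0.37 and an OAF1 whose arrays disagree, so they do not show joint movement. Without POX1, a subset chosen after its values were seen, the other 3 targets had a median of -0.13 as deposited and 0.29 with array 1 turned.

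Opposite signs were common on these arrays. All 4 measured targets had them, against 59.2% of the 5311 ORFs. The order seen in FOX2, CTA1 and FAA2, below 0 on array 1 and above 0 on array 2, held for 30.1% of ORFs. The order seen in POX1 held for 29.2%. What part the dyes play in these differences was not tested.

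**Figure D2:**
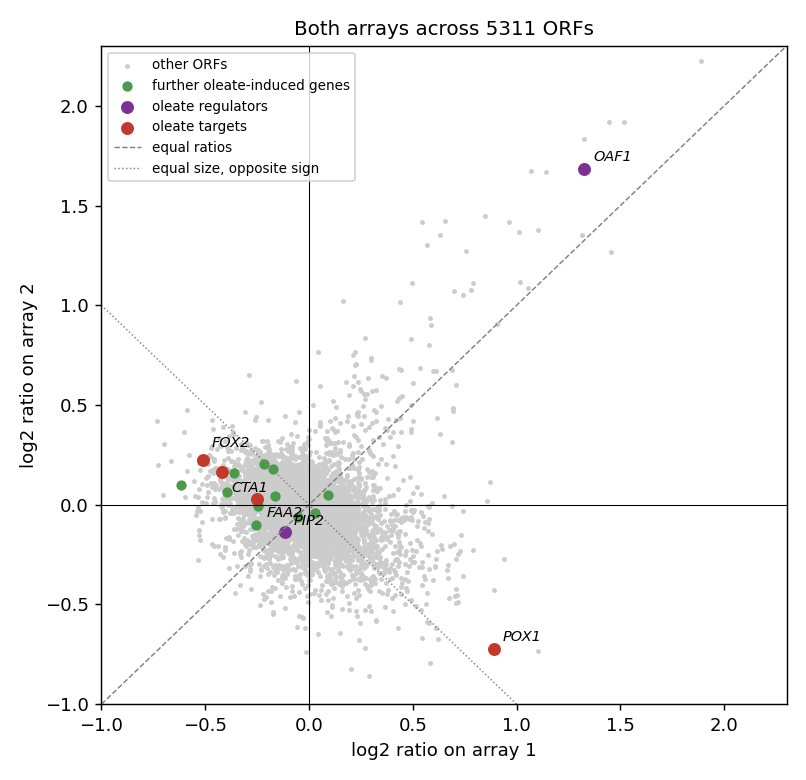
Log2 ratio on array 1 (horizontal axis) against array 2 (vertical axis) for each ORF with both values, the dashed line marking equal ratios and the dotted line ratios of equal size and opposite sign. OAF1 lies at 1.33 and 1.68 in the upper right, POX1 at 0.89 and -0.72 at the lower right edge of the cloud, and the other targets at its upper left.

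Further genes of the oleate response also lacked the high ratio of OAF1, and none passed the test, which few ORFs did. Of the 15 genes on this list, 11 had both values, and 0 rose and 0 fell in limma's test, with 0 at an unadjusted p under 0.05. The shares over all ORFs were 0.772% called, all higher, and 3.6% at an unadjusted p under 0.05. At such shares a list of 11 genes can easily hold none, so these counts say little about the list. Their median was -0.06, with -0.22 on array 1 and 0.05 on array 2, against a median of -0.03 for all ORFs. The order below 0 on array 1 and above 0 on array 2 was found in 6 of the 11 genes (54.5%), against 30.1% of all ORFs. It is not particular to this list, since 6 of 12 glucose repression regulators (50%), described below, had it too. SPS19, the peroxisomal 2,4-dienoyl-CoA reductase gene, had -0.62 on array 1 and 0.10 on array 2. TES1, a peroxisomal acyl-CoA thioesterase gene, had -0.36 and 0.16 on arrays 1 and 2. PXA2, a subunit of the peroxisomal fatty acyl-CoA transporter, had -0.40 and 0.06. These genes were lower on array 1 than on array 2, as FOX2 and CTA1 were.

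Other genes of the same list varied. ANT1, the peroxisomal adenine nucleotide transporter gene, had 0.09 and 0.05 on arrays 1 and 2. PCD1, a peroxisomal nudix hydrolase gene, had -0.05 and -0.06. LPX1, a peroxisomal lipase gene, was below 0 on both, at -0.25 and -0.10. PEX11, which promotes peroxisome division and is strongly induced in oleate, had -0.22 and 0.21, the order of signs of FOX2 and CTA1. The list's median was 0.12 when array 1 was turned, with 0 of 11 past the test and 2 at an unadjusted p under 0.05, which 9.4% of all ORFs had. The genes of the partner transporter subunit PXA1, of DCI1, IDP3 and STR3 had no value on either array.

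**Figure D3:**
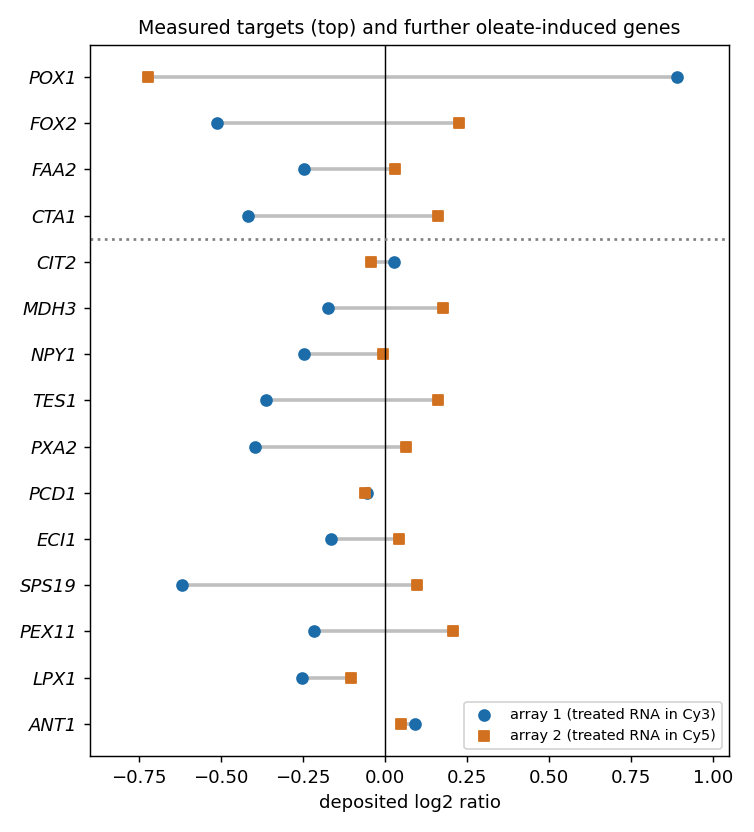
Deposited log2 ratios (horizontal axis) of the 4 measured targets, above the dotted line, and of the 11 measured further oleate-induced genes, with array 1 as circles and array 2 as squares. Array 1 lies left of array 2 for most genes, and POX1 shows the reverse with the widest gap.

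Genes that bring fatty acids into the cell and activate them did not pass. All 6 were measured, with a median of -0.07, 0 higher and 0 lower past the test and 0 at an unadjusted p under 0.05. Over all ORFs those shares were 0.772% called and 3.6%. The main long-chain acyl-CoA synthetase gene, FAA1, averaged a log2 ratio of 0.16 ± 0.11 (SD, n = 2). Its paralogue FAA4 had -0.14 ± 0.33, and FAA3 had -0.12 ± 0.04. FAA1 and FAA4 share sequence, so their spots may not be told apart fully. ACB1, the acyl-CoA binding protein gene, had -0.06 ± 0.04.

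The carnitine shuttle, which carries acetyl units from peroxisomes and cytosol to mitochondria, held 1 gene past the test among 2 measured of 4. Of all ORFs 0.772% were called, and a list of 2 measured genes gives no share to set beside that. YAT1, the carnitine acetyltransferase gene of the outer mitochondrial membrane, had 0.70 on array 1 and 1.07 on array 2. Its mean was 0.88 ± 0.27 (SD, n = 2), or 1.85-fold, with a limma adjusted p = 0.000191. It rose on both arrays, while with array 1 turned its mean was 0.19 and it did not pass. YAT2, another carnitine acetyltransferase gene, had -0.39 on array 1 and 0.03 on array 2 and did not pass. CAT2, whose product serves peroxisomes and mitochondria, and the carrier gene CRC1 had no value.

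Peroxins, the proteins that build peroxisomes and import their enzymes, lay around 0. Of 28 genes of peroxisome assembly and inheritance 27 were measured, with a median of -0.01. In limma's test 0 rose and 0 fell, against 0.772% of all ORFs called. An unadjusted p under 0.05 was found for 2 of the 27, against 3.6% of all ORFs. INP2, the peroxisomal receptor for the motor Myo2, had the highest mean, 0.39 ± 0.10 (SD, n = 2; limma adjusted p = 0.393). PEX32, a peroxisomal membrane protein gene, had 0.24 ± 0.11. PEX21, a co-receptor gene of import by the PTS2 signal, had the lowest mean at -0.32 ± 0.16 (limma adjusted p = 0.919). PEX19, needed for the insertion of peroxisomal membrane proteins, had 0.54 on array 1 and -0.29 on array 2, the order of signs of POX1.

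Genes that Adr1 and the gluconeogenic regulators activate when glucose runs out held 1 gene past the test among 11 measured of 14. Their median was -0.05. The share called over all ORFs was 0.772%. IDP2, the cytosolic NADP-dependent isocitrate dehydrogenase gene, had 1.10 on array 1 and 1.38 on array 2, a mean of 1.24 ± 0.19 (SD, n = 2; limma adjusted p = 8.02e-07). IDP2 rose 2.36-fold in the columns as deposited and had a mean of 0.14 with array 1 turned. The list was set with earlier results of these arrays known, that of IDP2 among them, so its call is a description only. The rest of the list did not accompany IDP2 past the test. ADH2, the glucose-repressed alcohol dehydrogenase gene and a classic Adr1 target, had -0.14 ± 0.05. GUT1, the glycerol kinase gene, had the lowest mean, -0.21 ± 0.30, and MDH2, cytosolic malate dehydrogenase, had -0.05 ± 0.05. The glyoxylate cycle genes ICL1 and MLS1 both had -0.47 on array 1, against 0.18 and 0.09 on array 2. That order of signs, the one of FOX2 and CTA1, was found in 4 of the 11 genes (36.4%), near the 30.1% of all ORFs. The reverse order was found in 3 (27.3%), ALD4, PCK1 and GUT2, near the 29.2% of all ORFs. Of these 3, ALD4 had the largest gap, at 0.56 on array 1 and -0.08 on array 2. IDP3, the peroxisomal relative of IDP2, was not measured.

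The regulators of glucose repression did not pass either. Of 13 genes 12 were measured, with a median of -0.07, and 0 rose, 0 fell and 0 had an unadjusted p under 0.05 in limma's test. Over all ORFs 0.772% were called and 3.6% had such a p. MIG1, the glucose repressor gene, had -0.19 on array 1 and -0.23 on array 2. GAL83, a beta subunit of the Snf1 kinase, had a mean of -0.14 ± 0.06 (SD, n = 2), and REG1, a regulator of the phosphatase Glc7 that restrains Snf1, had -0.09 ± 0.03. GLC7 had the highest mean, 0.09 ± 0.13. SIP2, another beta subunit, had the lowest, -0.22 ± 0.48, with -0.56 on array 1 and 0.12 on array 2. That order of signs was found in 6 of the 12 genes (50%), against 30.1% of all ORFs.

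Oaf1 belongs to the zinc cluster family of fungal transcription factors. Its gene's mean was above those of the 34 measured other family members on the list of 35. OAF1 was chosen for its high ratio, so this rank is a description only. The list is a part of the family and leaves out PIP2 and OAF3. The median of the 34 was -0.05, and 1 rose, 0 fell and 33 did not pass, beside 0.772% of all ORFs called. PPR1, the activator of pyrimidine synthesis genes, was the one past the test, with 0.91 on array 1 and 0.90 on array 2 (mean 0.91 ± 0.002, SD, n = 2; limma adjusted p = 8.13e-05). In the turned reading PPR1 was at -0.001 and did not pass. PUT3, the proline utilisation activator gene, had -0.19 ± 0.04, and YRR1, a drug resistance factor gene, had the lowest mean at -0.20 ± 0.02. HAP1, the haem-dependent activator gene, had 0.40 on array 1 and -0.53 on array 2.

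On the synthetic side of fatty acid metabolism no gene passed, and the list's median was 0.06 over 13 measured of 13. Limma's test called 0 higher and 0 lower, against 0.772% of all ORFs called. At an unadjusted p under 0.05 were 2 of 13, against 3.6% of all ORFs. HFA1, the mitochondrial acetyl-CoA carboxylase gene, had 0.16 on array 1 and 1.02 on array 2, a mean of 0.59 ± 0.61 (SD, n = 2; limma adjusted p = 0.0989). ACC1, the cytosolic carboxylase gene, had 0.35 ± 0.16 (limma adjusted p = 0.761). The 2 genes are paralogues and share sequence, so their signals may overlap. OLE1, the desaturase that makes oleate, had -0.11 and 0.06 on arrays 1 and 2, and the fatty acid synthase gene FAS2 had a mean of 0.10.

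**Figure D4:**
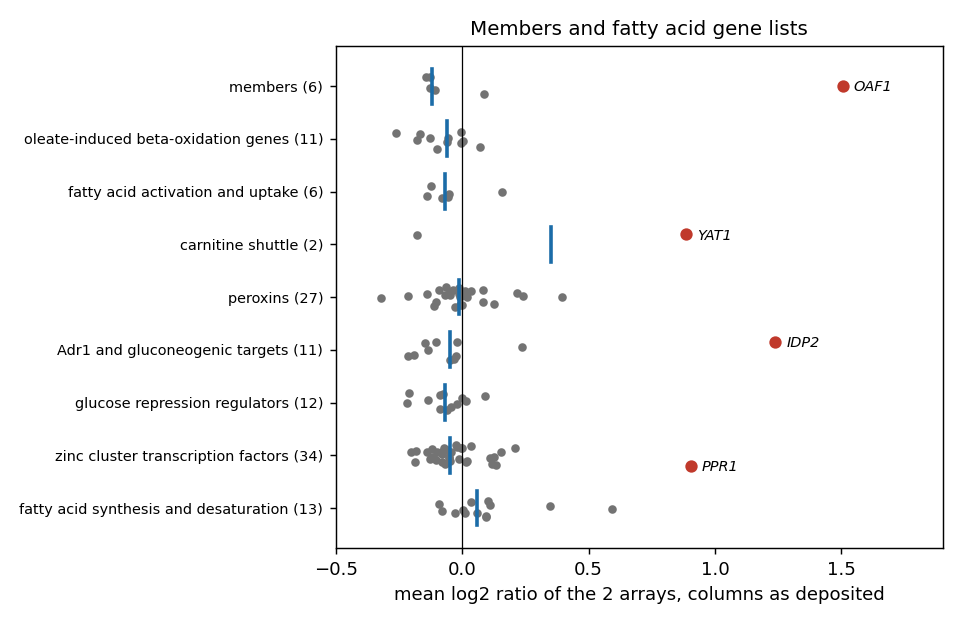
Mean log2 ratio of the 2 arrays (horizontal axis, columns as deposited) for the members and the 8 lists, with the number of measured genes in brackets, a blue bar at each median and red points for genes called in the fit over all ORFs. OAF1, YAT1, IDP2 and PPR1 stand apart at 1.51, 0.88, 1.24 and 0.91 while the medians of 7 of the 8 lists lie between -0.07 and 0.06; the median of 0.35 of the carnitine shuttle rests on 2 genes.

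Across the 8 lists, 124 genes other than the members were listed and 113 had both values. Of these 3 rose (2.65%) and 0 fell, against 0.772% of all ORFs called higher. A gene can stand on more than 1 list. The lists were set with earlier results of these arrays known, IDP2 among them, so the share is a description.

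The ORFs most like OAF1 over the 2 arrays, by the Euclidean distance between their pairs of log2 ratios, were not genes of fatty acid metabolism by their names. The nearest was YGL088W, a short ORF, at 1.32 on array 1 and 1.83 on array 2, a distance of 0.149. BPH1, a BEACH domain protein gene, followed at a distance of 0.187 and SIR4, of silent chromatin, at 0.257. YLR162W, another short ORF, had a distance of 0.262 and the RNA-binding protein gene PUF4 a distance of 0.301. Each of the 5 was above 1 on both arrays, which follows from their closeness to OAF1.

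Along the chromosome, OAF1 stands beside FLC2 and AIM2 in the R64 annotation. FLC2, a flavin carrier gene, had -0.08 on array 1 and 0.26 on array 2, and AIM2 had -0.19 and 0.16. Neither neighbour had the high ratio of OAF1. The gene beyond AIM2 is GEM1, a mitochondrial GTPase gene, and it had 1.01 and 1.37, with a limma adjusted p = 2.17e-06. On the other side, beyond FLC2, the acetyl-CoA synthetase gene ACS1, which is on the Adr1 list, had -0.07 and 0.02. SPT16, a chromatin factor gene that lies 2 protein-coding genes from POX1, had 0.71 and 0.60 and passed (limma adjusted p = 0.00592), with none of the opposed signs of POX1.

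The members are mostly long genes, with annotated gene lengths (introns included) from 1254 bp for POT1 to 3972 bp for ADR1 and a median of 2592 bp. The median of the 4999 tested ORFs with an annotated length was 1254 bp. OAF1 has 3144 bp and PIP2 2991 bp, and their mean ratios were 1.51 and -0.13. The 38 called ORFs with a length had a median of 2472 bp. The part of length in the ratio of OAF1 was not tested.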

How the data were processed

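The authors deposited log2 ratios of 2 two-colour arrays, 1 value per ORF and array; per the labels, total RNA was labelled as cDNA with Cy3 or Cy5. The unit was found from the values: on both arrays 100% of values, as powers of 2, fell on multiples of 0.0001 (tolerance 1% of the step). The sources used here do not give the scanner, background correction, normalization or the rule for missing spots. Of 6209 rows, 2 control rows were left out. Of 6207 ORFs, 5311 had both values, 241 only array 1, 36 only array 2 and 619 neither. ORF names were matched to the R64 annotation (5654 matched); the array's build is not named, so no coordinates are given, and no sequences were used here.

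Columns were used as deposited (medians -0.03 and -0.02). A limma 3.58.1 fit (R 4.3.3; lmFit, eBayes, two-sided, 1 residual and 23.5 prior degrees of freedom) tested whether each ORF's mean log2 ratio differed from 0, with Benjamini-Hochberg adjustment over 5311 ORFs and a threshold of 0.05. A dye term would have left no residual degree of freedom. On simulated data with 5311 genes, 86% of the 1.5-fold changes and 100% of those of 2-fold were called, with 7.92% false calls; the simulated arrays had independent errors and no dye effect.

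The members and lists were chosen with earlier results of these data known. Named genes are the members, from each list its called genes, highest, lowest and up to 3 genes of one sign on both arrays by their smaller absolute value, and the 5 ORFs nearest to OAF1. TES1, PXA2, PEX11, PEX19, ICL1, MLS1, ALD4, PCK1, HAP1, OLE1, FAS2, chromosomal neighbours and genes named as unmeasured or for a shared sign order were chosen after their values were seen. Alternatives were a turned array, centring, scaling, single arrays, ORFs with 1 value, robust variances, a 1.2-fold test and a filter on discordant ORFs. Python 3.11.15, pandas 2.3.3 and matplotlib 3.10.9 were used.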

Additional observations from a re-analysis of the deposited data

How the results depend on the processing

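The orientation of the columns decided most results. With array 1 turned, the ORFs past the test fell to 0, against 41 as deposited, and the members, the carnitine shuttle, the Adr1 list and the zinc cluster list each had 0 past it, against 1. The median of the targets was then 0.21, against -0.12, and PPR1 stood at -0.0011, against 0.91; the cause was not tested. Tested against 1.2-fold, 25 ORFs passed. With the 10% most discordant ORFs left out, 77 of 4780 passed, 5 of them lower. Among those that passed as higher was 1 gene of the peroxin list, INP2. POX1, FOX2 and CTA1 are left out by that filter. With centred arrays 61 ORFs passed, and 1 gene of fatty acid synthesis, HFA1, was among them. Single arrays gave 15 to 27 ORFs at 2-fold, against 17, all higher, and a median of the targets from -0.33 to 0.10. YAT1, IDP2 and PPR1 passed in 6 of 6 other fits of the unturned columns. Their limma adjusted p-values were up to 0.0167 for YAT1, 0.00207 for IDP2 and 0.00591 for PPR1. These fits reuse the same 2 values per ORF, so they are not independent support. The filter on discordant ORFs, 1 of the 6, removes ORFs by their spread and so lowers the variance behind its p-values. With array 1 turned none of the 3 genes passed (limma adjusted p = 0.90, 0.951 and 0.9995). The treated and untreated RNA share each array, so each value is already their paired difference on the log2 scale. If both columns have the same RNA on top, the test of the mean against 0 is thus the paired analysis. If they are fixed-dye ratios, the fit with array 1 turned is that analysis. Without spot intensities, the signal over background behind a ratio is unknown.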
